A study of Homo sapiens with 4 samples.

Results

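The CCR4-NOT deadenylase subunits described here were 10 genes, chosen by name as the stable subunits of the human complex: CNOT1, CNOT2, CNOT3, CNOT6, CNOT6L, CNOT7, CNOT8, CNOT9 (listed under its older symbol RQCD1), CNOT10 and CNOT11. They were 10 of the 27011 genes in the count table, and all 10 were among the 10978 genes tested. The rule that names them uses no measured value, but it was set with earlier results of these data known. RNA was sequenced from HEK293T cells, a transformed human embryonic kidney line, either wild type (WT, 2 libraries) or Helz-null (2 libraries). Both groups were untreated, were grown in the same way and were harvested one day after plating. The Helz-null line is a single line made by Cas9 editing of the helz gene, where a small deletion shifts the reading frame. HELZ is a putative RNA helicase that the study examined together with CCR4-NOT. The comparison asks whether the mRNAs of the complex itself were at another level in cells that lack HELZ. With 1 edited line, the lost gene and other differences of that line cannot be told apart. The study calls the 2 libraries of a group biological replicates, and p-values measure the spread between them.

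CCR4-NOT is the main deadenylase of animal cells: it shortens the poly(A) tail of mRNAs, which leads to their decapping and decay, and it can also repress translation. CNOT1 is the scaffold on which the other subunits assemble. CNOT2 and CNOT3 form the NOT module, CNOT6 or CNOT6L (the CCR4 nucleases) and CNOT7 or CNOT8 (the CAF1 nucleases) remove the tail, CNOT9 is a binding platform for adaptor proteins, and CNOT10 with CNOT11 docks on the N-terminal end of the scaffold. The paralogs of a nuclease pair exclude each other, so a single complex holds 1 of each pair. RNA-binding proteins and the miRNA effectors of the TNRC6 family bring the complex to their targets.

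The libraries held 65005666 and 42342295 counts (WT) and 41745401 and 70464140 counts (Helz-null), of which 97.8% fell in the genes tested. HELZ itself stood at 99.8 and 103.9 CPM (counts relative to the TMM-scaled library size) in WT against 37.0 and 37.9 CPM in Helz-null cells, a log2FC (log2 of Helz-null over WT) of -1.44 (SE 0.042, FDR = 2.1e-27, edgeR). HELZ mRNA was lower in both Helz-null libraries and still present in each. The biological coefficient of variation was 2.6%, and the subunits had between 2140 and 35044 counts in a library, so their log2FC had standard errors of 0.029 to 0.045.

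Because 2 of the subunit pairs are paralogs, the reads of one could be credited to the other. The stretch around the longest run shared by CNOT6 and CNOT6L is shown for that reason, with the bases that differ in capitals. It covers coding bases 921 to 1020 in exon 9 of 12 of both genes, read 5′ to 3′ from the coding strand of GRCh37, at chr5:179994897-179994996 (plus strand) for CNOT6 and chr4:78652545-78652644 (minus strand) for CNOT6L.
CNOT6: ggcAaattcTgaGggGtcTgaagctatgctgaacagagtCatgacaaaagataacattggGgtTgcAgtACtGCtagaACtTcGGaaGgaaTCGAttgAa
CNOT6L: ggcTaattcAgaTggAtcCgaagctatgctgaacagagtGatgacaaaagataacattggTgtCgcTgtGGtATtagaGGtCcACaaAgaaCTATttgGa
In this window 24 of the 100 bases differed, and the shared run was 20 bases, atgacaaaagataacattgg. Over the aligned coding sequence, CNOT6 and CNOT6L were 73.9% identical and CNOT7 and CNOT8 were 71.2% identical, the latter pair again with no shared run over 20 bases. These runs were sought over the whole annotated transcripts, UTRs included, 1 transcript a gene. Processed copies elsewhere in the genome were more alike. Of all 31-base words of the CNOT6L transcript, 26.3% occurred elsewhere in GRCh37, nearly all in the pseudogene CNOT6LP1 on chromosome 15. For CNOT7 the share was 14.8%, spread over CNOT7P1 within EDA on the X chromosome, CNOT7P2 on chromosome 1 and copies on chromosomes 4 and 11. The other 8 subunits had at most 0.50%. How reads matching such copies were counted is not stated, so the levels of CNOT6L and CNOT7 also rest on that step.

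Of the 10 subunit mRNAs, 1 changed at an FDR under 0.005: CNOT10 was down-regulated, by 10.9%. None was up-regulated. At this threshold 15.5% of all genes tested were lower and 13.9% higher in Helz-null cells, 29.4% in either direction. At an FDR under 0.05, 5 subunits differed, 3 of them higher in Helz-null cells (CNOT3, CNOT7 and CNOT11) and 2 lower (CNOT9 and CNOT10), where 44.4% of all genes tested did. That count of 5 came to 1 without the first Helz-null library (CNOT10), to 2 without the second (CNOT9 and CNOT10), to 3 without the first WT library and to 4 without the second. It came to 2 with DESeq2 (CNOT10 and CNOT11). With library size only it stayed at 5, but 4 were higher and 1 lower, with CNOT1 in place of CNOT9. An unadjusted p under 0.05 held for the same number, 5 of 10, against 50.9% of all genes. The median log2FC of the subunits was 0.046, against -0.0009 for all genes tested. It was 0.030 without the first Helz-null library, 0.079 with library size only and 0.071 with the trend of log2FC on GC content subtracted. Their median absolute log2FC was 0.070, against 0.106. The 95% intervals of all 10 lay within a 1.2-fold change either way, as did those of 62.7% of the genes tested, and the interval of 5 subunits held 0. The WT and Helz-null libraries did not overlap for 8 subunits, against 70.6% of all genes tested. Of these, 6 subunits were higher in Helz-null cells (34.9% of all genes tested) and 2 were lower (35.7%).

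**Figure D1:**
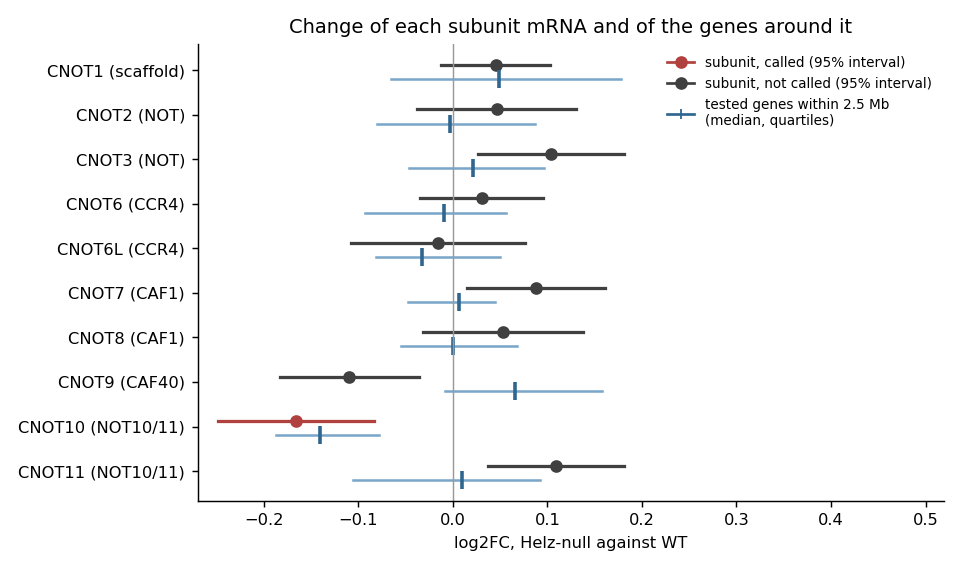
The log2FC of Helz-null over WT cells for each subunit (points, with 95% intervals from the edgeR fit), ordered by role, and beneath each the median and quartiles of the genes tested within 2.5 Mb (ticks and thin lines). Every interval of a subunit lies between -0.25 and 0.18, and CNOT10 is the only subunit past an FDR of 0.005.

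CNOT1, the scaffold (chromosome 16, 58553855 to 58663789, minus strand, GRCh37), has 49 exons in its annotated transcript. It stood at 493.8 and 504.2 CPM in WT and at 527.6 and 502.6 CPM in Helz-null cells. The second Helz-null library fell between the WT libraries, so the groups overlapped. The log2FC was 0.045 (SE 0.029, 95% interval -0.012 to 0.10, FDR = 0.20), so that the upper bound was a 1.07-fold higher level. With library size only the log2FC was 0.079 (FDR = 0.021, edgeR). With each library left out in turn it ran from 0.011 (without the first Helz-null library) to 0.081 (without the second), with no call in any of the 4 fits. SETD6, a gene on the opposite strand that overlaps CNOT1, had at most 9.28% as many counts as CNOT1.

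The NOT module showed 2 small differences in the same direction, neither of them past the threshold. CNOT2 (chromosome 12, 70636782 to 70748773, plus strand, 16 exons) stood at 64.4 and 62.6 CPM in WT and 65.3 and 65.9 CPM in Helz-null cells. The Helz-null libraries were both the higher ones, by less than the spread allows to call (log2FC 0.046, SE 0.042, FDR = 0.39, from 0.029 to 0.069 with each library left out and 0.082 with the trend of log2FC on GC content subtracted). CNOT3 (chromosome 19, 54641465 to 54659419, plus strand, 18 exons), the partner with which CNOT2 pairs, stood at 99.8 and 91.1 CPM in WT and 102.3 and 103.3 CPM in Helz-null cells. Its WT libraries were the farther apart, and the lower one set most of the difference: the log2FC was 0.10 (SE 0.038, FDR = 0.026), and it ranged from 0.045 to 0.17 when each library was left out in turn. Without the first WT library CNOT3 passed the threshold (log2FC 0.17, FDR = 0.00016). LENG1, which overlaps CNOT3 on the opposite strand, had at most 9.32% as many counts. CNOT3 also had the highest GC content of the 10 transcripts, 61.4%, and with the trend of log2FC on GC content over all genes subtracted its value was 0.057.

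Neither CCR4 nuclease passed the threshold, and only CNOT6 had WT and Helz-null libraries that did not overlap. CNOT6 (chromosome 5, 179921379 to 180005358, plus strand, 12 exons) stood at 151.5 and 156.8 CPM in WT and 157.9 and 156.9 CPM in Helz-null cells. Both Helz-null libraries were above both WT libraries, the second WT library only just below them. The log2FC was 0.031 (SE 0.032, 95% interval -0.034 to 0.096, FDR = 0.46), from 0.0048 without the first WT library to 0.056 without the second. CNOT6L (chromosome 4, 78634541 to 78740769, minus strand, 12 exons) stood at 52.5 and 53.3 CPM in WT and 51.8 and 52.7 CPM in Helz-null cells. The groups overlapped, and CNOT6L had a log2FC of -0.016 (SE 0.045, 95% interval -0.11 to 0.076, FDR = 0.81), from -0.029 to -0.0034 with each library left out. It was also the only subunit outside CNOT9 and CNOT10 with a value below 0, but its sign turned with library size only (0.018), with the neighbour median subtracted (0.016) and with the trend of log2FC on GC content subtracted (0.044). CNOT6 came to 0.075 with the GC trend subtracted.

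The CAF1 nucleases were both a little higher in Helz-null cells without passing the threshold. CNOT7 (chromosome 8, 17082475 to 17104387, minus strand, 7 exons) stood at 109.5 and 117.9 CPM in WT and 118.9 and 122.0 CPM in Helz-null cells. The gap between the groups was smaller than the gap between the WT libraries. Its log2FC was 0.088 (SE 0.036, 95% interval 0.015 to 0.16, FDR = 0.045), from 0.032 to 0.14 with each library left out, and without the second WT library it passed the threshold (FDR = 0.00071). CNOT8 (chromosome 5, 154237113 to 154256352, plus strand, 7 exons) stood at 62.3 and 62.8 CPM in WT and 65.9 and 64.0 CPM in Helz-null cells. All Helz-null values were again the higher ones, with a log2FC of 0.053 (SE 0.042, FDR = 0.32), from 0.033 to 0.076 with each library left out and 0.089 with the GC trend subtracted. FAXDC2, which overlaps CNOT8 on the opposite strand, had at most 4.33% as many counts. With the GC trend subtracted, CNOT7, the transcript with the lowest GC content of the 10 at 35.6%, stood at 0.15.

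CNOT9 (chromosome 2, 219433303 to 219461803, plus strand, 8 exons) is the adaptor-binding subunit also called CAF40. It stood at 111.6 and 105.0 CPM in WT and 99.5 and 101.4 CPM in Helz-null cells. The Helz-null libraries were both lower, by a log2FC of -0.11 (SE 0.036, 95% interval -0.18 to -0.036, FDR = 0.013), which missed the threshold. The value ran from -0.15 to -0.062 with each library left out in turn, and it passed without the second WT library.

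The only call fell in the module at the N-terminal end of the scaffold, and its 2 subunits had values of opposite sign. CNOT10 (chromosome 3, 32726637 to 32815367, plus strand, 19 exons) stood at 72.1 and 74.2 CPM in WT and 64.0 and 66.1 CPM in Helz-null cells. Both Helz-null libraries lay below both WT libraries, by more than the gap within either group, and the log2FC was -0.17 (SE 0.041, 95% interval -0.25 to -0.084, FDR = 0.00097). CNOT11 (chromosome 2, 101869348 to 101886778, plus strand, 7 exons), which binds CNOT10 in the same module, stood at 92.9 and 93.6 CPM in WT and 100.6 and 100.5 CPM in Helz-null cells. Its libraries lay close together within each group, and the Helz-null ones were both higher, with a log2FC of 0.11 (SE 0.035, 95% interval 0.037 to 0.18, FDR = 0.011). The CNOT10 call was near the threshold: it was lost without the first Helz-null library (log2FC -0.14, FDR = 0.025) and without the second WT library (FDR = 0.0058). DESeq2 gave an FDR of 0.0068, and scaling by library size alone, without TMM, gave a log2FC of -0.13 (FDR = 0.0066) for CNOT10 and put CNOT3 and CNOT11 past the threshold instead.

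**Figure D2:**
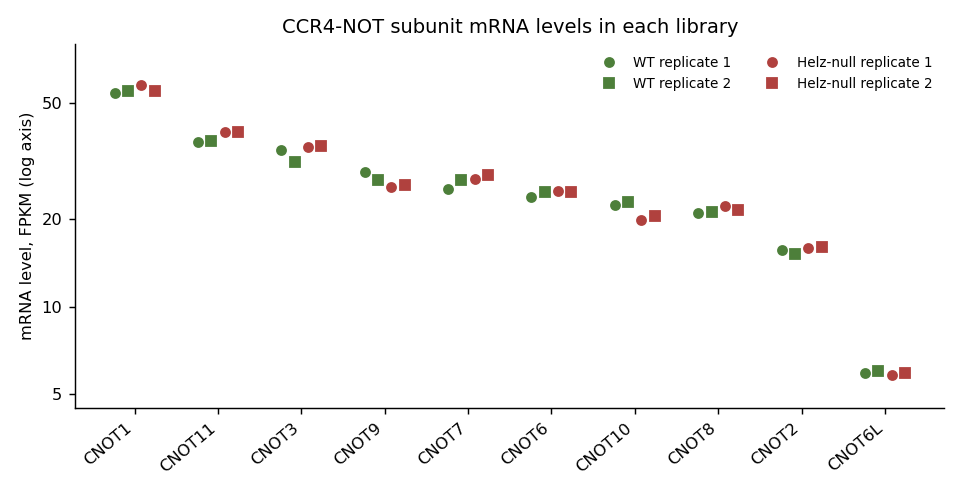
Levels of the 10 subunit mRNAs per length, as FPKM on a log axis, in each WT and Helz-null library (1 point per library), in the order of the WT means. CNOT1 stands highest and CNOT6L lowest, and within a gene the WT and Helz-null points lie much closer together than those of most different genes.

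Per length, the subunit mRNAs spanned a 9.18-fold range. In WT cells, in FPKM (CPM per kilobase of the gene width in the table), CNOT1 was highest at 54.8 ± 0.81 (SD, n = 2). The order went on with CNOT11 at 37.0 ± 0.20, CNOT3 at 33.1 ± 2.1, CNOT9 at 28.1 ± 1.2, CNOT7 at 26.4 ± 1.4 and CNOT6 at 24.3 ± 0.59 FPKM. CNOT10 at 22.6 ± 0.46, CNOT8 at 21.0 ± 0.10, CNOT2 at 15.4 ± 0.32 and CNOT6L at 5.96 ± 0.065 FPKM closed it. Only CNOT9 and CNOT7 overlapped between their WT libraries, 1 of 45 pairs of subunits. Over all 4 libraries CNOT10 and CNOT8 overlapped as well, and those 2 pairs of neighbours changed places in Helz-null cells. All subunits but CNOT6L lay above the median of the genes tested, 12.9 FPKM. The order depended on the length taken for a gene: with the longest annotated transcript as the length, CNOT3 came to 21.0 FPKM (place 7) and CNOT7 to 16.5 FPKM (place 8), below CNOT8 at 23.1 FPKM, while CNOT1 stayed first and CNOT6L last.

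Summed by role, the levels of Helz-null over WT cells lay between 0.928-fold (CNOT9, the only subunit of its kind) and 1.06-fold (CNOT2 with CNOT3). CNOT9 stood at 0.513 of the CNOT1 level in WT and at 0.461 in Helz-null cells. The CAF1 nucleases summed to 46.4 and 48.4 FPKM in WT and 49.7 and 49.8 FPKM in Helz-null cells. The CCR4 nucleases summed to 29.8 and 30.8 FPKM in WT and 30.8 and 30.7 FPKM in Helz-null cells. The level of CAF1 over CCR4 mRNAs was therefore 1.55 and 1.58 in WT and 1.62 and 1.62 in Helz-null cells, a small gap. The groups did not overlap, as those of 70.6% of all genes tested did not. With the longest transcripts as lengths it was 1.29 and 1.29 in WT and 1.34 and 1.33 in Helz-null cells. CNOT10 and CNOT11 together gave 59.2 and 60.2 FPKM in WT and 59.8 and 60.4 FPKM in Helz-null cells: the groups overlapped, since the lower CNOT10 level was offset in the sum by the higher CNOT11 level. CNOT2 and CNOT3 summed to 50.2 and 46.7 FPKM in WT and 51.3 and 51.8 FPKM in Helz-null cells.

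The paralog pairs differed in how evenly they were expressed, and for both the 95% interval of the difference between the cell lines held 0. The intervals of such differences take the standard errors of the 2 genes as independent, although both come from the same 4 libraries. CNOT6 held 80.2% and 80.5% of the CCR4 FPKM in WT and 81.0% and 80.6% in Helz-null cells, a CNOT6 to CNOT6L ratio of 4.08 ± 0.054 against 4.22 ± 0.068 (SD, n = 2 each). The log2FC of CNOT6 exceeded that of CNOT6L by 0.046 (95% interval -0.066 to 0.16), and by 0.024 with neighbour medians subtracted. The CNOT6 to CNOT6L ratio was higher in both Helz-null libraries (4.26 and 4.17) than in both WT libraries (4.04 and 4.12). The two-sided exact permutation test gave p = 0.333, the smallest that 2 against 2 libraries allow, so it cannot tell a difference from none. CNOT7 held 54.8% and 56.4% of the CAF1 FPKM in WT and 55.4% and 56.8% in Helz-null cells. The groups overlapped, the CNOT7 to CNOT8 ratio was 1.25 ± 0.059 against 1.28 ± 0.050 (SD, n = 2 each), and the log2FC differed by 0.035 (95% interval -0.077 to 0.15, exact permutation p = 0.667). Its sign turned without the first WT library (-0.015), without the second Helz-null library (-0.0082) and with counts thinned to the smallest library (-0.016). The difference was 0.082 without the second WT library and 0.071 without the first Helz-null library. Which CAF1 paralog stood higher depended on the length taken: with the longest annotated transcripts the CNOT7 share was 40.8% and 42.5% in WT and 41.5% and 42.8% in Helz-null cells, and the CNOT7 to CNOT8 ratio was 0.714 in WT and 0.729 in Helz-null cells. The intervals still allow a shift of either balance of up to 0.16 on the log2 scale. The ratio of CNOT6 to CNOT6L is a level, so it also rests on how reads shared with CNOT6LP1 were counted.

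The same measure for the 2 pairs of non-paralogous partners was added after the values were known, and it is given as a description. CNOT2 held 31.2% and 32.5% of the summed FPKM of CNOT2 and CNOT3 in WT and 30.9% in both Helz-null libraries, with a difference in log2FC of -0.057 (95% interval -0.17 to 0.057). It was -0.11 without the first and -0.016 without the second WT library, -0.033 with neighbour medians subtracted, and of the other sign (0.026) with the GC trend subtracted. CNOT10 held 37.7% and 38.2% of the sum with CNOT11 in WT and 33.1% and 33.9% in Helz-null cells, and the CNOT10 to CNOT11 ratio was 0.611 ± 0.0090 against 0.504 ± 0.012 (SD, n = 2 each). The log2FC of CNOT10 was lower than that of CNOT11 by 0.28 (difference -0.28, 95% interval -0.38 to -0.17), with an exact permutation p of 0.333. With the medians of the neighbouring genes subtracted, the difference was -0.13. Over the 4 pairs compared, no adjusted permutation p can pass a threshold at this number of libraries.

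**Figure D3:**
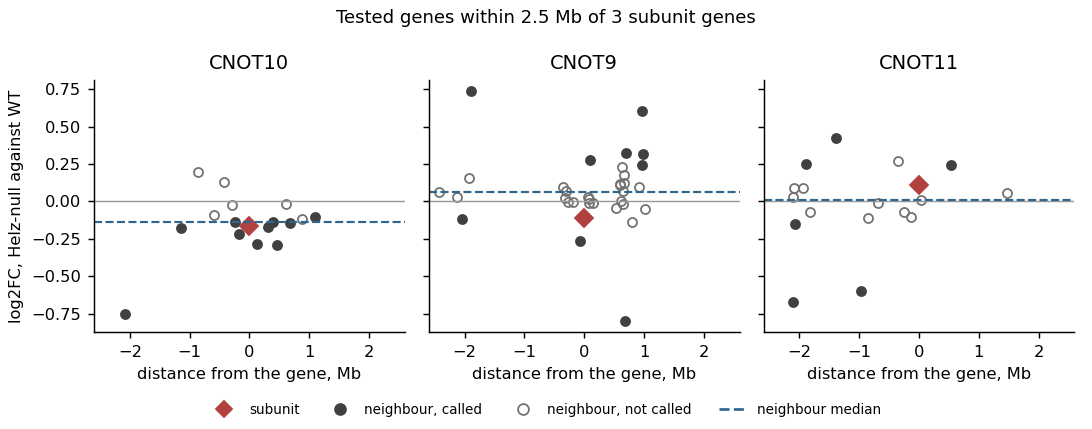
The log2FC of CNOT10, CNOT9 and CNOT11 (diamonds at distance 0) and of the genes tested around each (circles, filled where called at an FDR under 0.005), against the distance from the gene in Mb on GRCh37, with the neighbour median as a dashed line. The neighbours of CNOT10 have a median of -0.14, next to the CNOT10 value of -0.17, while the medians around CNOT9 and CNOT11 are 0.065 and 0.010.

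The genes around CNOT10 moved with it. Of the 16 genes tested within 2.5 Mb, 14 had a log2FC below 0, 10 were down-regulated at an FDR under 0.005 and 0 were up-regulated, and their median was -0.14. Over all 10978 genes tested 5516 had a log2FC below 0, 15.5% were called lower and 13.9% higher. They included DYNC1LI1 at -0.22, TRIM71 at -0.28, GLB1 at -0.17, CMTM6 at -0.14 and TGFBR2 at -0.75, and the exceptions above 0 were OSBPL10 at 0.19 and CMTM8 at 0.13. CNOT10 less the median of its neighbours stood at -0.026. The part of this regional shift in the CNOT10 result was not tested. Around the other subunits the median was -0.032 to 0.065: it was 0.010 around CNOT11, 0.021 around CNOT3 and 0.0065 around CNOT7. CNOT9 had neighbours with a median of 0.065 (33 genes), the opposite sign to its own value, and stood at -0.17 after subtraction. CNOT1 stood at -0.0034 after subtraction, since its 32 neighbours had a median of 0.049.

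In structure the 10 mRNAs had little in common beyond their roles. The coding sequence ran from 855 bases (CNOT7) to 7128 bases (CNOT1), against a median of 1368 over the genes tested. The 3′ UTR was longest in the nucleases CNOT6L (7047 bases), CNOT7 (5757 bases) and CNOT6 (4161 bases), and shortest in CNOT10 (267 bases) and CNOT3 (277 bases), against a median of 1351 bases. The fourth nuclease, CNOT8, was at 1356 bases, so a long 3′ UTR was shared by 3 of the 4 nucleases. CNOT9, which is no nuclease, had 2807 bases. GC content was at or below the median of 48.3% in all but CNOT3 (61.4%) and CNOT11 (49.1%). For CNOT7 the annotated transcript, 6890 bases, is longer than the gene width counted, 4312 bases. Its 3′ UTR therefore lies partly outside that width, and its GC content and share of copied words describe the annotated transcript.

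**Figure D4:**
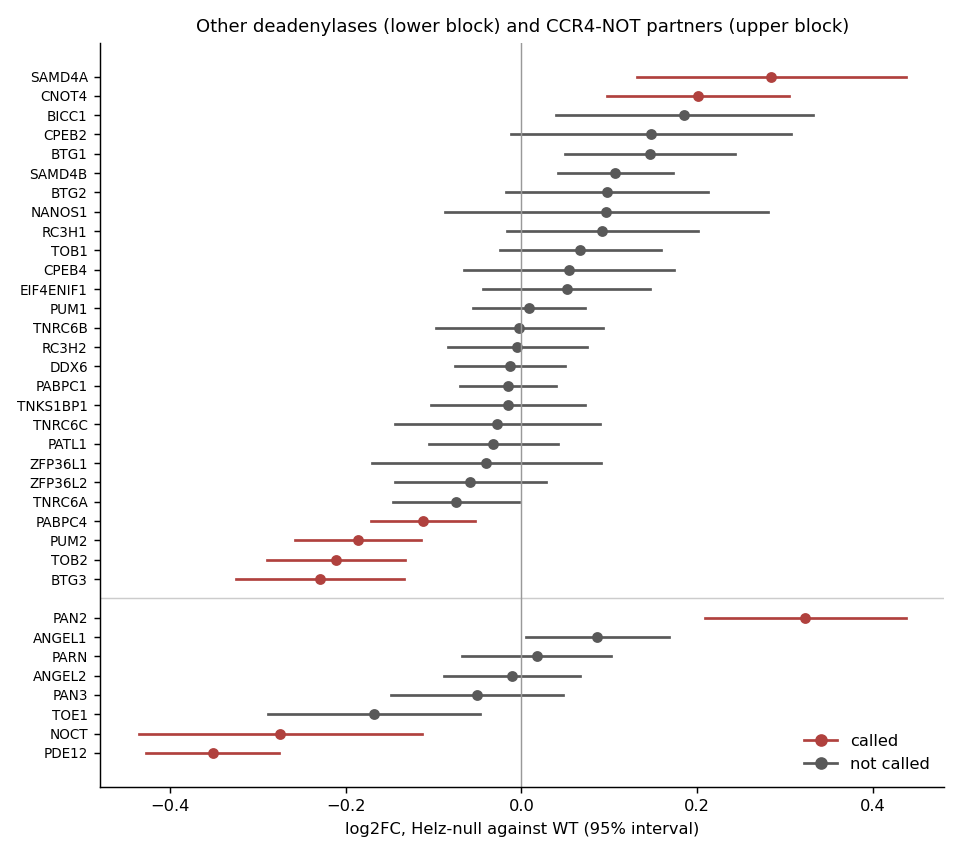
The log2FC of Helz-null over WT cells, with 95% intervals, for the partner and other deadenylase genes tested, with called genes marked. PDE12 at -0.35 and PAN2 at 0.32 lie farthest from 0 among the genes plotted.

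Among 32 genes for proteins that bind CCR4-NOT or bring it to mRNAs, 27 were tested, 2 were up-regulated and 4 down-regulated (13.9% and 15.5% of all genes tested), with a median log2FC of -0.0025. Up-regulated were CNOT4, a ubiquitin ligase that is loosely tied to the complex (log2FC 0.20, SE 0.051, FDR = 0.0014), and SAMD4A, an RNA-binding repressor of the Smaug family (0.28, SE 0.076, FDR = 0.0022). CNOT4 rose from 38.2 and 36.7 CPM to 42.3 and 43.8 CPM, among 12 neighbours with a median of 0.23, none below 0 and 10 of them up-regulated, and stood at -0.033 with that median subtracted. The part of that regional shift in the CNOT4 result was not tested. The CNOT4 call was lost with DESeq2 (FDR = 0.0088), without the second WT library (FDR = 0.0085) and without the second Helz-null library (FDR = 0.042). The SAMD4A call was lost with DESeq2 (FDR = 0.013), with counts thinned to the smallest library (FDR = 0.0065) and without any one of the 4 libraries (FDR = 0.0066 to 0.024). Down-regulated were TOB2 (-0.21, FDR = 2.5e-05) and BTG3 (-0.23, FDR = 0.00012), members of the antiproliferative family that binds the CAF1 nucleases. PUM2, a Pumilio repressor, fell by 0.19 on the log2 scale (FDR = 4.1e-05), and PABPC4, a poly(A)-binding protein, fell by 0.11 (FDR = 0.0019). The neighbours of TOB2, BTG3, PUM2, PABPC4 and SAMD4A had medians of -0.064, -0.068, -0.00031, 0.014 and 0.032. PUM2 missed the threshold without the second Helz-null library (FDR = 0.0052). PABPC4 missed it with library size only (log2FC -0.079, FDR = 0.025) and without the first (FDR = 0.040) or the second (FDR = 0.021) Helz-null library. DDX6, the helicase that docks on CNOT1, had a log2FC of -0.013 (95% interval -0.075 to 0.049). ZFP36, NANOS2, NANOS3, CPEB1 and CPEB3 were not among the genes tested, which the authors selected on FPKM. CPEB1 stood at 1.44 and 1.74 FPKM in WT and 1.02 and 1.05 FPKM in Helz-null cells, with no call given for it. Its groups did not overlap, as those of 70.6% of all genes tested did not. The groups overlapped for ZFP36 and CPEB3, and NANOS2 and NANOS3 had at most 8 counts in a library.

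Of 9 genes for deadenylases and relatives outside the complex, 8 were tested (PNLDC1 was not), 1 was up-regulated and 2 were down-regulated (13.9% and 15.5% of all genes tested), with a median log2FC of -0.031. PAN2, the nuclease of the PAN2-PAN3 complex that starts tail shortening, stood at 29.0 and 31.3 CPM in WT and 39.0 and 36.4 CPM in Helz-null cells (log2FC 0.32, SE 0.057, FDR = 1.1e-05). Its partner PAN3 had a log2FC of -0.051 (SE 0.049, FDR = 0.42), and the neighbours of PAN2 had a median of 0.0054. PDE12, a mitochondrial phosphodiesterase, stood at 94.4 and 92.5 CPM in WT and 73.7 and 73.0 CPM in Helz-null cells (-0.35, SE 0.037, FDR = 3.7e-10). PDE12 lies on chromosome 3 (57542001 to 57552575), as CNOT10 does. It had 15 neighbours with a median of -0.25, of which 11 were down-regulated, and stood at -0.10 with that median subtracted. The part of that regional shift in the PDE12 result was not tested. NOCT, Nocturnin, was just past the threshold (-0.27, SE 0.080, FDR = 0.0048), among 14 neighbours with a median of -0.13, 6 of them down-regulated. It stood at -0.14 with that median subtracted, and the part of that shift in the NOCT result was not tested. The NOCT call was lost with DESeq2 (FDR = 0.033), with RLE scaling (FDR = 0.0053), with library size only (FDR = 0.012), with thinned counts (FDR = 0.0061) and without the first WT library (log2FC -0.20, FDR = 0.11) or either Helz-null library (FDR = 0.020 and 0.038). PARN, the poly(A)-specific ribonuclease, had a log2FC of 0.017 (SE 0.042, FDR = 0.77).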

How the data were processed

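Total RNA of 2 WT and 2 Helz-null HEK293T cultures was sequenced in paired ends. The authors removed ribosomal reads with Bowtie2, mapped to hg19 with TopHat2, counted reads with QuasR and deposited raw counts per gene with a gene width. The strand setting of the counting is not given in the sources used here. The count totals exceed the number of mapped reads that the methods give, as they would with both mates of a pair counted, so the counts were also halved. The deposited comparison holds fold changes and p-values, of which only the names of its 10978 genes (selected by the authors on FPKM) were used. edgeR 4.0.16 gave TMM factors (0.987 to 1.01), dispersions and quasi-likelihood tests of Helz-null against WT over those genes, with Benjamini-Hochberg FDR, called under 0.005. Standard errors came from the log2FC and the F statistic. A floor of 3 counts equals 0.0426 to 0.0719 CPM; it covers counting error only. The test was tested on simulated data.

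Groups were taken from the labels. The members, the partner and deadenylase lists and the window of 2.5 Mb were chosen with earlier results of these data known. Named were all members, HELZ, called genes of both lists, CNOT4, DDX6, PAN2, PAN3 and PARN; the neighbours named were chosen after their values were seen. Positions, transcripts and sequence came from GRCh37 with GENCODE 44 lifted to it: the symbol matched for 10379 genes tested and an older one for 517, and 82 had no match. Alternatives were other scaling, tests, filters, depth, thresholds, a replicate block, each library left out, and neighbour or GC subtraction.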

Additional observations from a re-analysis of the deposited data

How the results depend on the processing

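The 0 up-regulated subunits became 2 with library size only (CNOT3 and CNOT11), 3 at an FDR under 0.05, and 0 to 1 with each library left out (CNOT3 without the first and CNOT7 without the second WT library). The 1 down-regulated subunit became 0 with library size only, with DESeq2 and with a 1.2-fold threshold (glmTreat), 2 at an FDR under 0.05, and 0 to 1 with each library left out; without the second WT library the 1 was CNOT9 in place of CNOT10. Library size only moved the median log2FC of the subunits from 0.046 to 0.079 and that of all genes by 0.033, and raised the up-regulated share of all calls from 47.3% to 61.5% (1524 up and 1701 down against 2109 and 1318). With that scaling the log2FC was 0.080 for CNOT2 and 0.064 for CNOT6. Over all genes, glmTreat called 217 up and 318 down, DESeq2 1102 and 1288, RLE scaling 1530 and 1662, and thinned counts 1491 and 1620. An FDR under 0.05 gave 2371 and 2506. Leaving out a library leaves 1 library in its group, and without either Helz-null library the calls over all genes were fewer too. The CNOT6 minus CNOT6L difference went from 0.046 to 0.024 with neighbour medians subtracted, and CNOT7 minus CNOT8 ran from -0.016 to 0.082 over its alternatives. With the longest transcript as width, chosen after seeing the data, the WT share of CNOT7 went from 55.6% to 41.7%, of CNOT2 from 31.8% to 38.9% and of CNOT10 from 37.9% to 41.6%. Halved counts changed no call among the subunits and the 9 called partners and deadenylases. Up-regulated partners numbered 4 with library size only, 5 at an FDR under 0.05, 0 with DESeq2 and glmTreat, 1 with counts thinned to the smallest library (CNOT4), 3 with the replicate block (SAMD4B added) and 1 to 2 with each library left out, and not always the same genes: CNOT4 with SAMD4B without the first WT library, BTG1 alone without the second, CNOT4 alone without the first Helz-null library and BICC1 alone without the second. Down-regulated partners numbered 0 with glmTreat and 2 to 4 with each library left out (2 without the second Helz-null library, TOB2 and BTG3). Up-regulated deadenylases numbered 0 with glmTreat. Down-regulated deadenylases numbered 1 with RLE scaling, library size only, DESeq2 and thinned counts, 0 with glmTreat and 1 to 3 with each library left out (TOE1 added without the second WT library; NOCT lost without any of the other 3). SAMD4B, BTG1, BICC1 and TOE1 were named after their values were seen. The cause of these changes was not tested, beyond the lengths that set the shares. Same-numbered libraries did not deviate together (r = 0.023 over 10767 genes); the replicate block gave 1677 up and 1841 down calls and changed no subunit's call, with 0 up and 1 down. With 2 libraries a group, the subunits had standard errors of 0.029 to 0.045; how much of them is counting error was not tested.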
